A study of Mus musculus with 6 samples.

Results

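The genes described here encode the factors that start and extend protein chains on the ribosome. They were chosen by name alone, as the probe sets that the platform annotation assigns to exactly 1 gene whose symbol starts with Eif or Eef. The eIF2 kinases (Eif2ak), the eIF4E-binding proteins (Eif4ebp), Eif4enif1 and the symbols that start with Eef2k were left out. This gave 50 genes of the 18194 genes measured. They were represented by 99 probe sets for 44 genes on the MOE430A arrays and by 32 probe sets for 21 genes on the MOE430B arrays. Of the 50 genes, 29 were measured on MOE430A only, 6 on MOE430B only and 15 on both. Another 3 factor genes (Eef1g, Eif3j1 and Eif3j2) are named only by probe sets of several genes and are not among the members.

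The series holds 6 arrays of total RNA from 10T1/2, a mouse embryonic fibroblast line, in 1 group with no other treatment, genotype or time. The cells grew in DMEM with 10% foetal bovine serum and were taken at 80% confluency, and RNA prepared with RNeasy was biotin-labelled. There were 3 samples, numbered 1, 4 and 5, each on 1 MOE430A and 1 MOE430B array, and the stated purpose was to have a profile of genes shared with stem cells that can be subtracted from stem cell profiles. Nothing in the labels tells separate cultures from repeat preparations, so differences among the samples may be technical, and with 1 group no test was possible.

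Translation of most mRNAs begins when eIF2, carrying GTP and the initiator tRNA, joins the small ribosomal subunit together with eIF1, eIF1A, eIF3 and eIF5, while eIF4E, eIF4G and eIF4A bind and unwind the capped end of the mRNA. Elongation follows, in which eEF1A brings each aminoacyl-tRNA to the ribosome, the eEF1B subunits recharge eEF1A with GTP, and eEF2 moves the ribosome along. The mRNAs of ribosomal proteins, of most elongation factors and of some initiation factors are known as TOP mRNAs, because they start with a run of pyrimidines through which the mTOR pathway controls their translation.

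The start sites of some of these genes are printed because the members known as TOP mRNAs and the remaining members are set apart in the comparisons of samples. The 30 bases around the annotated start are from RefSeq promoters on GRCm38.p6, with 15 bases on each side of the start, and each lies at the border of the promoter and the first exon. Capitals mark the longest run of C or T in the window. All 5 TOP members that have a listed promoter are shown: Eef1a1 (chr9:78481710-78481739, minus strand), Eif3f (chr7:108934400-108934429, plus strand), Eif4b (chr15:102073758-102073787, plus strand), Eef1b2 (chr1:63176816-63176845, plus strand) and Eef2 (chr10:81176616-81176645, plus strand). Eif2s2 (chr2:154892892-154892921, minus strand), Eif5 (chr12:111538086-111538115, plus strand) and Eif3c (chr7:126566352-126566381, minus strand) had larger differences between samples. The longest run is 10 bases in Eef1a1 and 15 in Eif3f, but 7, 4 and 2 in Eif4b, Eef1b2 and Eef2, so short runs also occur among the TOP members. Long runs also occur outside the TOP list, at 19 bases in Eif2b5 and 16 in Eif2s3x, whose starts are not shown.
Eef1a1: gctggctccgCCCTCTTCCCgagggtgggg
Eif3f: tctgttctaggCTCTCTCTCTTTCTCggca
Eif4b: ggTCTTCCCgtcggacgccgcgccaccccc
Eef1b2: tggacctgcagTTCCgccggaagtagccga
Eef2: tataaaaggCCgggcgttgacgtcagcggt
Eif2s2: cacgtaaggttggCTTTactgtacgcctgc
Eif5: gagaTCgacgtgcatgcgagccaatgacaa
Eif3c: CTCacctgctcagagggactcggcagctta

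Promoter sequences (250 bases before the start to 50 after it) were matched for 40 of the 50 members and for 14453 of all measured genes. A run of at least 8 C or T in the window around the start stood in 10 of the 40 members (25.0%) and in 14.6% of all promoters. Among the 5 TOP members that matched, 2 had such a run (40.0%). The E-box CACGTG, which reads the same on both strands and is bound by Myc and other factors, was found in 11 of the 40 members (27.5%) and in 10.2% of all promoters of the same length. Among the members at least 2-fold higher in sample 5 (described further on), 3 of the 7 matched genes held the box (42.9%). The box stood in 8 of the 33 matched other members (24.2%). Of the 3, Eif4a1 and Eif4e were under 2-fold by their brightest probe sets (1.32-fold and 1.49-fold). Of the 7, Eef1e1 passed the signal filter only through sample 5. The contrast was not tested. Matches to the run or the box describe letters in a window and are no evidence of a factor's binding. The boxes of Eif4a1 (chr11:69672595-69672624, minus strand), Eif4e (chr3:138527028-138527057, plus strand) and Eef2 (chr10:81176576-81176605, plus strand) are shown in capitals within 30 bases, the box starting at base -189, -228 and -43 from the start. Eif4e has 2 listed promoters, and the window belongs to one of them.
Eif4a1: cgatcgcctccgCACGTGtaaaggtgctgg
Eif4e: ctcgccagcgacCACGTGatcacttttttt
Eef2: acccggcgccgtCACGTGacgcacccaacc

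The deposited values are MAS5 signals, intensities in arbitrary units. The median signal over an array was 527 to 581 on MOE430A and 856 to 921 on MOE430B. Detection of a probe set meant a signal above a background limit on 3 of 3 arrays. The limit, the 95th percentile of probe sets for genes that fibroblasts should not express, was 928 to 1185 on MOE430A and 2112 to 3422 on MOE430B. As a check of the label, 9 of 10 fibroblast marker genes were detected and 1 of 23 marker genes of other cell types, the epithelial Epcam by a MOE430B probe set. The 6 epithelial marker probe sets on MOE430A were low, summing to 1336 to 1634 per array. RNA in sample 1 had the strongest bias towards 3′ ends: the Gapdh 3′ to 5′ signal ratio on MOE430A was 24.7 in sample 1, 15.03 in sample 4 and 10.6 in sample 5.

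Most of the factor genes were detected in these fibroblasts. By any of their probe sets, 37 of 50 genes passed the limit on all 3 arrays of a design, against a background of 30.0% of all measured genes. At the level of probe sets the count was 63 of 99 on MOE430A, against 26.3% of all, and 7 of 32 on MOE430B, against 13.4%. Only 13 genes were detected by all of their probe sets and 24 by some. Of the 13 genes not detected, 8 were above the limit on 1 or 2 arrays, and Eif2s3y, Eif4a3, Eef1a2, Eefsec and Eef1aknmt were above it on none. For comparison, 41 of 47 cytosolic ribosomal protein genes were detected.

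Of the initiation factors 32 of 40 genes were detected, and of the elongation group 5 of 10. All 11 measured subunits of eIF3, the large scaffold that holds the small subunit and the other factors together, were detected. So were the 3 cap-binding proteins of the eIF4E family and 4 of 5 genes of the eIF4A helicases and their cofactors. The measured eIF4G-type scaffolds, Eif4g2 and Eif4g3, were detected too. Eif4g1 and Eif2s1 are not among the members. Of the exchange factor eIF2B, which recharges eIF2 with GTP, 2 of 5 subunit genes were detected. The elongation genes not detected were Eef1a2, Eef1e1, Eefsec, Eef1akmt2 and Eef1aknmt.

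**Figure D1:**
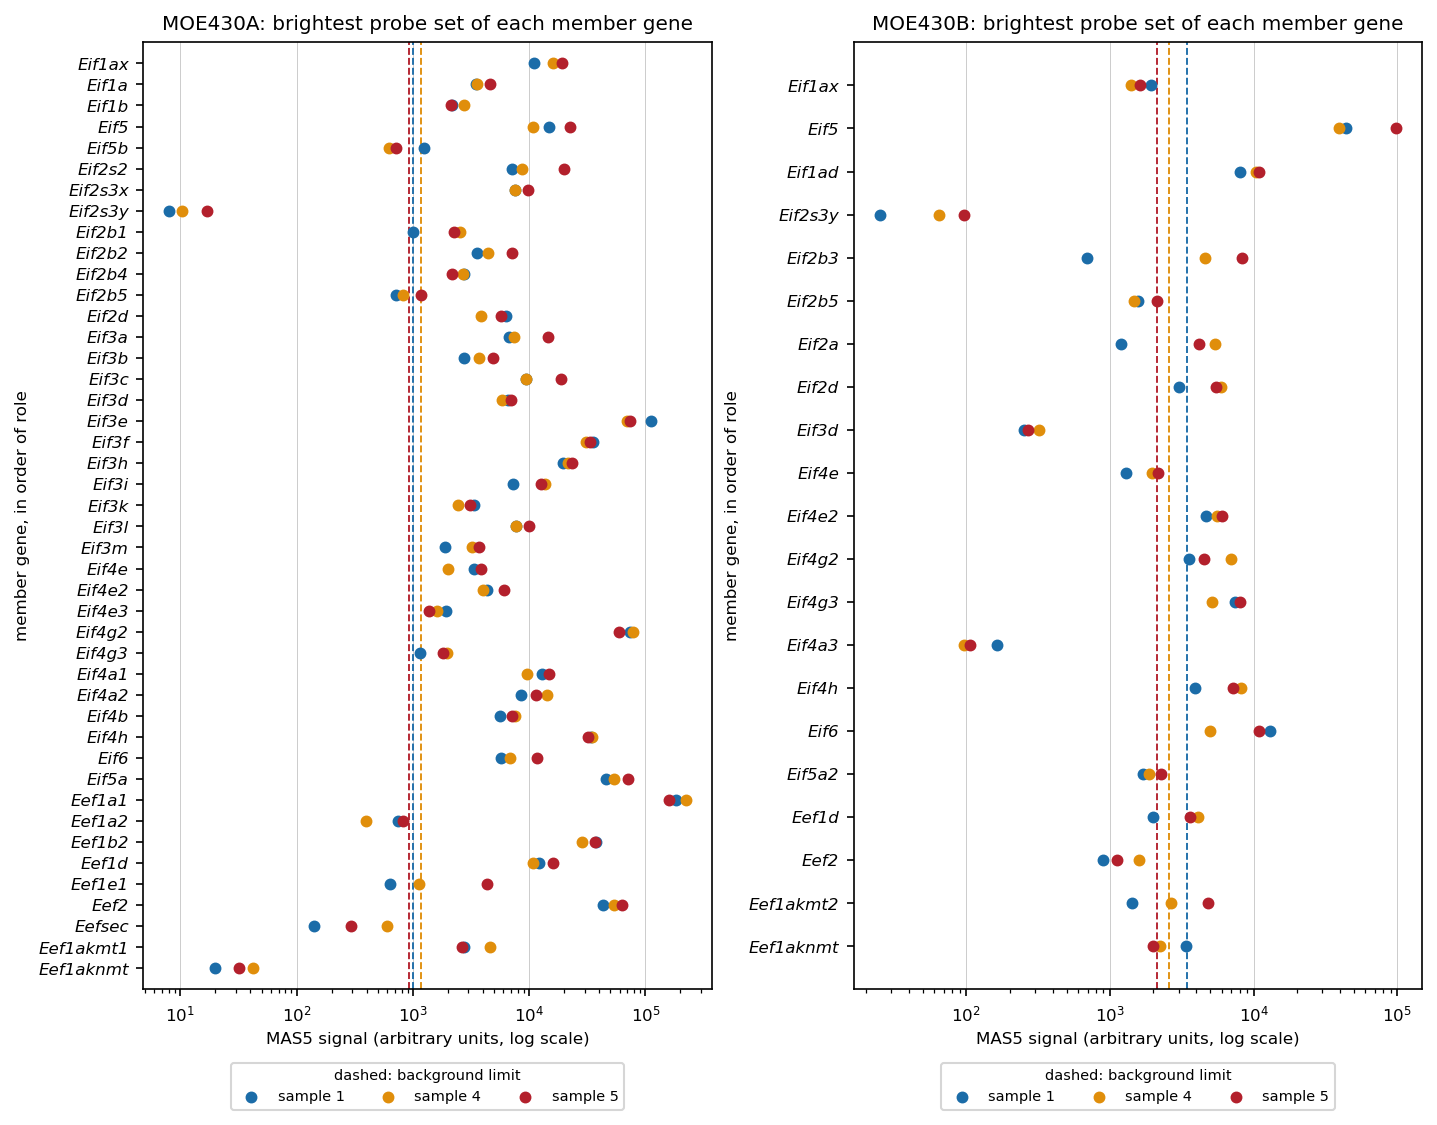
MAS5 signal in arbitrary units (horizontal, log scale) of each member gene's brightest probe set on MOE430A (left) and MOE430B (right), with 1 point for each of samples 1, 4 and 5 and dashed lines at each array's background limit. Most genes on MOE430A lie to the right of the limits of 928 to 1185, whereas more of those on MOE430B lie near or under the limits of 2112 to 3422, and for Eif2s2, Eif5, Eif3a, Eif3c and Eef1e1 the point of sample 5 stands to the right of the other two.

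To compare the samples, each signal was set against the other samples of the same probe set. The deviation of a sample is its log2 signal minus the mean log2 signal of the other 2 samples, where any signal under the background limit first took the limit's value. Probe sets were kept when their mean log2 signal was above the mean log2 limit, which left 70 of 99 member probe sets (38 genes) on MOE430A and 13 of 32 (11 genes) on MOE430B. The remaining member probe sets passed no such filter and enter none of the counts of deviations.

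The member genes were, by their medians, higher in sample 5 than in samples 1 and 4. On MOE430A the median deviation over the 70 member probe sets was 0.43 in sample 5 (1.35-fold), -0.26 in sample 1 and -0.19 in sample 4. Over all 6742 kept probe sets the medians were -0.04, -0.02 and 0.03 in the same order. The 3 deviations of a probe set sum to 0, so they are not independent, and against sample 1 alone the median of sample 4 was 0.028. Against sample 4 alone, the median of sample 1 was -0.028. Of the 70, 57 were higher in sample 5 than the mean of the others, where 47.8% of all kept probe sets were, and 45 had their highest signal there, where 35.9% of all kept probe sets did. The lowest signal was in sample 1 for 35 of the 70 (35.9% of all), in sample 4 for 25 (25.1% of all) and in sample 5 for 10 (39.0% of all). In bulk RNA, a different amount of a transcript per cell and a different mix of cells cannot be told apart.

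Deviations of at least 2-fold were found mostly in sample 5. There 14 member probe sets of 9 genes were at least 2-fold higher, against 7.43% of all kept probe sets, and 0 were as much lower, against 6.96%. The 9 genes were Eif1a, Eif5, Eif2s2, Eif3a, Eif3c, Eif4e, Eif4g2, Eif4a1 and Eef1e1. Some probe sets pass the filter on mean signal only through sample 5, such as that of Eef1e1. Among the 63 member probe sets detected on all 3 arrays, 9 were at least 2-fold higher in sample 5, of Eif2s2, Eif5, Eif3a, Eif3c, Eif4a1 and Eif4g2, against 6.76% of all such probe sets. With each gene given by its brightest kept probe set alone, 3 of 38 genes passed 2-fold (Eif2s2, Eif3a and Eef1e1), against 6.72% of all genes, a share near the background. Sample 1 had 0 members 2-fold higher (5.59% of all) and 6 lower (6.59% of all), and sample 4 had 0 higher (2.45% of all) and 1 lower (1.79% of all).

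On the MOE430B arrays, hybridised with the same samples, the order of the medians was similar for samples 1 and 5. The median deviation of the 13 kept member probe sets was 0.29 in sample 5, -0.44 in sample 1 and 0.07 in sample 4, where all 2955 kept probe sets had medians of 0.00 to 0.01. The highest signal was in sample 5 for 7 of 13 (38.3% of all) and the lowest in sample 1 for 10 of 13 (40.6% of all), in sample 4 for 3 (26.4% of all) and in sample 5 for 0 (33.0% of all). At 2-fold, Eif2b3 and Eif5 were higher in sample 5 (5.28% of all), 0 members were lower (4.97% of all), and Eif6 was lower in sample 4 (2.10% of all). The probe set of Eif2b3 would not have passed the filter on mean signal without sample 5. No member passed 2-fold in sample 1, where 3.42% of all were higher and 4.26% lower, or was as much higher in sample 4 (2.37% of all).

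Other measures also differed among the samples, and not all of them in the order of the members' medians. The Gapdh 3′ to 5′ ratio was highest in sample 1 and lowest in sample 5 on both designs. The beta-actin ratio was 17.5, 9.57 and 8.68 in samples 1, 4 and 5 on MOE430A. On MOE430B it was 20.2, 8.23 and 10.8, lowest in sample 4. The summed signal of the 19 fibroblast marker probe sets on MOE430A was 512663, 561105 and 252595 in samples 1, 4 and 5, so that it was lowest in sample 5, with 13 of the 19 above the limit there against 16 and 15. On the same arrays, the 31 probe sets for markers of endothelium, leukocytes, epithelium, skeletal muscle, fat, and neurons and glia summed to 10925, 10359 and 11163, with 2, 0 and 3 above the limit. The fat markers alone summed to 1554, 1889 and 5218, highest in sample 5. None of these sums on MOE430A was at 0. On MOE430B, the probe set of Epcam gave 31382, 139544 and 29693, highest in sample 4. The 6 epithelial marker probe sets on MOE430A summed to 1336, 1442 and 1634, with 0, 0 and 1 above the limit. The part of these measures in the members' deviations was not tested. Brightness was examined by cutting all kept MOE430A probe sets into 4 groups of equal size by mean signal. The members' median in sample 5 was 0.86, 0.54, 0.53 and 0.39 from the dimmest to the brightest group, with 2, 13, 18 and 37 members, and that of all probe sets was -0.09 to 0.01. The 2 dimmest were Eef1e1 (1.98), kept only through sample 5, and a probe set of Eif2d (-0.26). Their median of 0.86 therefore describes neither.

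**Figure D2:**
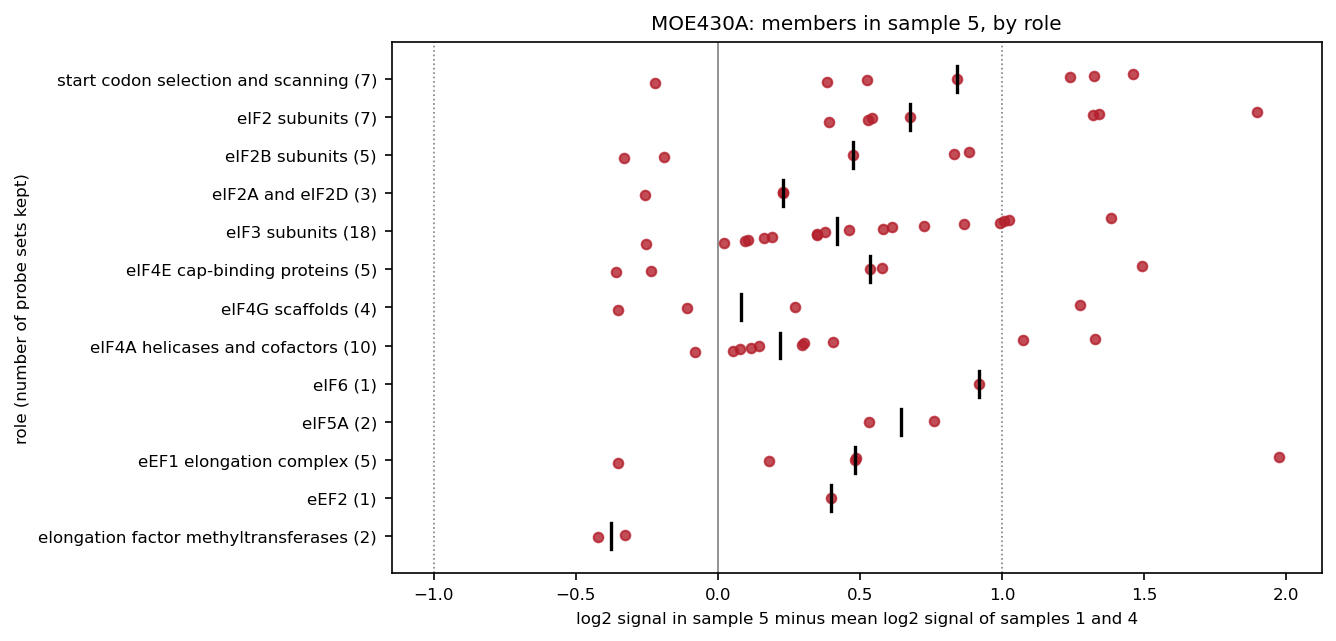
Deviation of sample 5 on MOE430A (log2 signal in sample 5 minus the mean log2 signal of samples 1 and 4, horizontal) for the 70 kept member probe sets, in rows by role with the number of probe sets. Points are probe sets, bars are medians, and dotted lines mark 2-fold; the medians run from -0.38 for the methyltransferases to 0.92 for the single eIF6 probe set.

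The factors that select the start codon had a median deviation of 0.84 in sample 5 over 7 MOE430A probe sets of 4 genes. Of the 7, 3 belong to Eif5, and the median is the value of its brightest probe set. The brightest probe sets of Eif1ax, Eif1a and Eif1b had deviations of 0.52, 0.38 and -0.22. Eif5 encodes the protein that triggers GTP hydrolysis by eIF2 at the start codon. Its brightest probe set gave 14690, 10733 and 22487 in samples 1, 4 and 5 on MOE430A (mean 15970 ± 5981, SD, n = 3). The identical probe set is also present on MOE430B, the single member among 164 probe sets common to both designs, and there it gave 44095, 39010 and 98431. Sample 5 was highest on both arrays, by 1.79-fold and 2.37-fold over the mean of the others. A further pair of Eif5 probe sets gave 2648, 2620 and 6223, and 2438, 1914 and 5409, which put sample 5 at 2.36-fold and 2.50-fold. Eif5 was thus highest in sample 5 by all 3 of its kept probe sets, 1 of them measured on both designs.

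The eIF1A proteins promote scanning along the mRNA. Eif1ax gave 10900, 16030 and 19008 in samples 1, 4 and 5. Eif1a had 3469, 3545 and 4574 by its brighter probe set, and 1323, 852 and 3449 by the other, whose deviation in sample 5 was 1.46. Sample 5 was highest for both genes. Eif1b, a paralogue of the start codon fidelity factor eIF1, gave 2186, 2771 and 2108 and was highest in sample 4. Eif1ad, a protein with an eIF1A-like domain that was measured on MOE430B, gave 8014, 10377 and 10833 and was lowest in sample 1. Eif5b, the GTPase that joins the ribosomal subunits, was not detected, and its brightest probe set gave 1242, 622 and 717.

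All 7 kept probe sets of eIF2 subunits, which belong to 2 genes, had their highest signal in sample 5 (35.9% of all kept probe sets did). Their median deviation was 0.67. Eif2s2, the beta subunit, to which eIF5 and the exchange factor bind, had 5 kept probe sets. The brightest gave 7055, 8666 and 19787 in samples 1, 4 and 5, a 2.53-fold excess in sample 5. A dimmer one gave 1583, 2774 and 7801, or 3.72-fold, and one more gave 3338, 2235 and 6818, or 2.50-fold. The remaining probe sets of Eif2s2 had deviations of 0.53 and 0.54 in sample 5, so the direction was shared by all 5 and the size was not. Of the gamma subunit genes, the X-linked Eif2s3x gave 7505, 7535 and 9854, highest in sample 5. The Y-linked copy Eif2s3y gave 8.05, 10.3 and 17.1, far below the limit on all arrays.

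The genes of eIF2B varied in different directions. Eif2b2 gave 3586, 4437 and 7092 in samples 1, 4 and 5 by its brightest probe set, highest in sample 5, whereas another of its probe sets gave 2082, 1938 and 1760, lowest there. Eif2b4 gave 2773, 2705 and 2178 and was lowest in sample 5. Eif2b1, the regulatory alpha subunit, gave 1002, 2563 and 2239, so that sample 1 alone was below the limit. Eif2b3 on MOE430B gave 691, 4617 and 8347, with sample 5 highest and sample 1 under the limit, where the signal is no measured level. Without sample 5 it would not have passed the filter on mean signal. Eif2b5, the catalytic subunit, gave 712, 819 and 1175 and was above the limit in sample 5 only. Eif2d, which can deliver initiator tRNA without eIF2, gave 6312, 3852 and 5778 on MOE430A, lowest in sample 4, but 3027, 5938 and 5494 on MOE430B, lowest in sample 1 and highest in sample 4. Eif2a on MOE430B, an alternative initiator tRNA carrier, gave 1189, 5397 and 4185, below the limit in sample 1.

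The eIF3 subunits made up the largest group, with 18 kept probe sets for 11 genes and a median of 0.42 in sample 5. Of the 18, 17 were higher there (47.8% of all kept probe sets were). The 3 that were at least 2-fold higher (7.43% of all) were 1 probe set of Eif3a and 2 of Eif3c. Eif3a and Eif3c encode core subunits of the complex. Eif3a gave 6757, 7420 and 14384 in samples 1, 4 and 5, and its other kept probe set gave 5122, 3918 and 8170. Eif3c gave 9426, 9369 and 18702, and 7362, 7393 and 14812 by its brighter probe sets, whose names end in _x_at because their probes can match other transcripts. By the brightest probe set of each gene, samples 1 and 4 lay close together and sample 5 was higher, by 2.03-fold for Eif3a and 1.99-fold for Eif3c. A dimmer Eif3c probe set gave 685, 2610 and 4236, in which samples 1 and 4 lay apart and sample 1 was under the limit.

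The other eIF3 genes had smaller differences. Eif3b, a core subunit, gave 2727, 3721 and 4875, and Eif3l gave 7685, 7766 and 10040, both highest in sample 5. Eif3m gave 1875, 3250 and 3695 and Eif3i had 7218, 13548 and 12599 by its brightest probe set, both lowest in sample 1. Eif3d, a subunit that can itself bind the cap of some mRNAs, differed little, at 6568, 5848 and 6935. Eif3k gave 3362, 2435 and 3080. Among the TOP members, Eif3e gave 111307, 69579 and 73787 by its brightest probe set, highest in sample 1. Another of its 3 kept probe sets gave 18296, 11842 and 18735, highest in sample 5, and all 3 were lowest in sample 4. Eif3f, at 35282, 30735 and 33381, and Eif3h, at 19564, 21446 and 23350, had coefficients of variation of 6.89% and 8.82%. These signals of different probe sets cannot be ranked against each other, since each probe set has its own response.

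The cap-binding protein eIF4E, the limiting target of the 4E-BPs, gave 3342, 2007 and 3863 in samples 1, 4 and 5 by one Eif4e probe set and 994, 1688 and 3675 by another. Both were highest in sample 5, by 1.49-fold and 2.81-fold, but they placed the lowest signal in different samples. Eif4e2, a cap-binding protein that does not recruit eIF4G, gave 4360, 3999 and 6043 by its brightest probe set, highest in sample 5. Eif4e3 gave 1927, 1606 and 1373 and was lowest in sample 5.

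The scaffolds had a median deviation of 0.08 in sample 5 over 4 probe sets on MOE430A, 3 of which belong to Eif4g2. Eif4g2 (DAP5) resembles eIF4G without its eIF4E-binding part. Its brightest probe set gave 73134, 77762 and 59109, lowest in sample 5, and another gave 1416, 1235 and 3200, or 2.42-fold higher there. Of its 4 kept probe sets on both designs, 3 were lower in sample 5. Eif4g3 gave 1147, 1981 and 1817 on MOE430A, lowest in sample 1, and 7401, 5094 and 7989 on MOE430B, lowest in sample 4. Its deviations in sample 5 were 0.27 and 0.38.

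Among the helicases, Eif4a1, the main RNA helicase of the cap complex, gave 12772, 9655 and 14698 by its brightest probe set and 3360, 4940 and 8567 by the next. Sample 5 was highest in both, at 1.32-fold and 2.10-fold, and in one more probe set at 733, 1467 and 3055. Its paralogue Eif4a2 gave 8431, 14361 and 11404 and was highest in sample 4. The cofactor Eif4b, a TOP member, gave 5639, 7604 and 7093, with sample 1 lowest in all 3 of its probe sets. Eif4h, another helicase cofactor, gave 33761, 34358 and 32169 by its brightest probe set, a coefficient of variation of 3.38%. Its probe set on MOE430B gave 3889, 8203 and 7141, a coefficient of variation of 35.1%, with sample 1 lowest, so the steadiness was not shared across its probe sets. Eif4a3 on MOE430B, a helicase of the exon junction complex and not of the cap complex, gave 163, 96.4 and 106 and was not detected.

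Of the remaining factors, Eif6, which keeps the large ribosomal subunit from joining too early, gave 5677, 6833 and 11759 on MOE430A, highest in sample 5. A different Eif6 probe set on MOE430B gave 13004, 4976 and 10917, highest in sample 1. Eif5a, the hypusine-bearing factor that helps with difficult peptide bonds, gave 45369, 53250 and 70988, highest in sample 5 by 1.44-fold. Its paralogue Eif5a2 was not detected on MOE430B, with 2022, 1755 and 1380 by one probe set and 1688, 1871 and 2274 by the other.

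Among the core elongation factors, Eef1a1, which brings aminoacyl-tRNA to the ribosome, gave 183765, 222668 and 158449 in samples 1, 4 and 5 (mean 188294 ± 32348, SD, n = 3) and was lowest in sample 5. Eef1a2, which replaces Eef1a1 in muscle and neurons, gave 749, 393 and 817 and stayed under the limit on all arrays. Eef2 gave 43083, 53483 and 63197, highest in sample 5 by 1.32-fold. Of the exchange factor genes, Eef1b2 gave 37307, 28600 and 36976, lowest in sample 4. Eef1d gave 12168, 10740 and 16026 by its brightest probe set, lowest in sample 4, but 8500, 10902 and 13450 by another, lowest in sample 1. On MOE430B a probe set of Eef1d gave 1982, 4118 and 3632, lowest in sample 1, where it was under the limit.

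Eef1e1, despite its symbol, encodes AIMP3, a scaffold protein of the multisynthetase complex of tRNA synthetases. It gave 633, 1135 and 4303, above the limit in sample 5 only. Its deviation of 1.98 was taken with samples 1 and 4 set at their limits, and it passed the filter only through sample 5, so it has no rank among the members. Eefsec, which carries selenocysteine tRNA, gave 143, 595 and 296 and was not detected. Of the methyltransferases of eEF1A, Eef1akmt1 gave 2762, 4614 and 2660, lowest in sample 5, and its other kept probe set was lowest there too. Eef1akmt2 on MOE430B gave 1413, 2675 and 4824, above the limit in samples 4 and 5. Eef1aknmt gave 20.1, 42.4 and 31.8 on MOE430A.

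**Figure D3:**
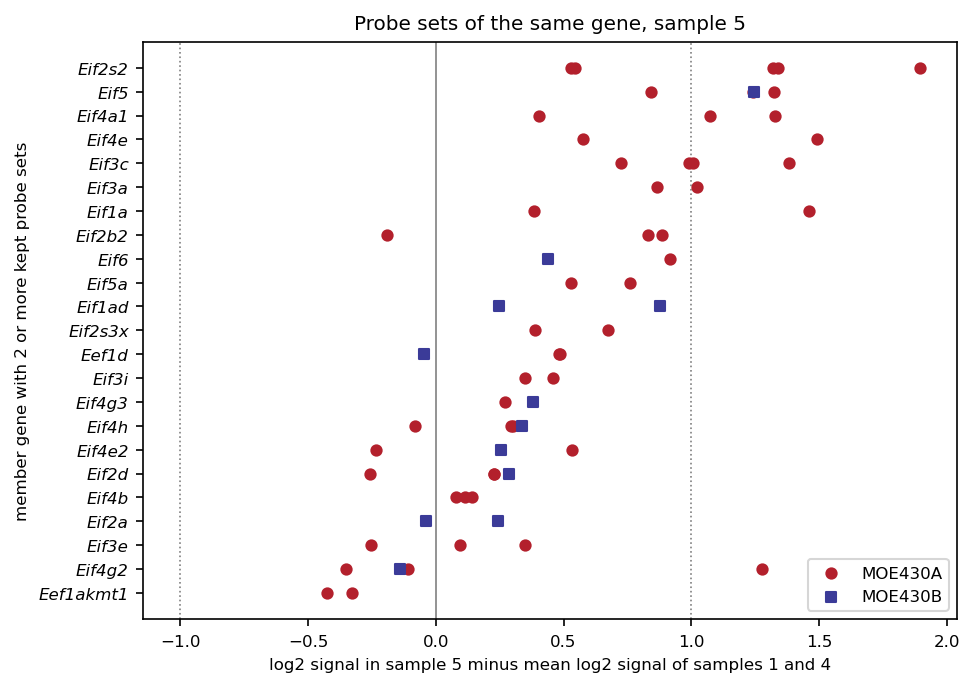
Deviation of sample 5 (log2, horizontal) for every kept probe set of the 23 member genes with at least 2 of them, with circles for MOE430A, squares for MOE430B and dotted lines at 2-fold. In 14 genes all points lie to the right of 0, in 1 gene (Eef1akmt1) all lie to the left, and in 8 they lie on both sides, and for Eif4g2 1 of 4 points lies beyond 1.

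Probe sets of the same gene share the transcript but not the probes, so they show how far a deviation depends on the probes. Of the 23 genes with at least 2 kept probe sets, 14 were higher in sample 5 by all of them. The largest medians over a gene's probe sets were 1.32 for Eif2s2, 1.24 for Eif5, 1.07 for Eif4a1, 1.03 for Eif4e, 1.00 for Eif3c and 0.94 for Eif3a. Across designs, 7 genes were kept on both with different brightest probe sets, and the sign of the deviation was shared for 2 genes in sample 1, 3 in sample 4 and 5 in sample 5. With 1 probe set per gene on MOE430A, 21 of 38 genes were highest in sample 5, 10 in sample 4 and 7 in sample 1. Of all kept MOE430A probe sets, counted singly and not by gene, 35.9%, 29.1% and 35.0% were. The ratio of highest to lowest sample was under 1.5 for 17 of the 38 genes and at least 2 for 6. None of the counts by gene in this paragraph was made over all genes, so they have no background of their own.

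The TOP members (Eef1a1, Eef1b2, Eef1d, Eef2, Eif3e, Eif3f, Eif3h and Eif4b) had a smaller spread between samples on MOE430A than the remaining members, a difference that was not tested. Over their 13 kept probe sets on MOE430A the median deviations were -0.11, 0.00 and 0.14 in samples 1, 4 and 5, with 0 past 2-fold. Over the 57 kept probe sets of the remaining members they were -0.34, -0.19 and 0.53, with 14 at least 2-fold higher in sample 5 (7.43% of all kept probe sets were). The 78 kept probe sets of cytosolic ribosomal proteins, whose mRNAs are TOP mRNAs too, had medians of 0.00, -0.08 and 0.14 and 0 at least 2-fold higher in sample 5. The median coefficient of variation was 17.8% for the TOP members, 20.0% for the ribosomal proteins, 30.2% for the remaining members and 25.8% for all kept probe sets. On MOE430B, with 1 kept probe set of a TOP member (Eef1d) and 12 of the remaining members, it was 34.5% and 35.0%. The coefficients use the signals as measured, and the TOP members and the remaining members were not matched for signal. On MOE430A every kept probe set of a TOP member was above the limit on all 3 arrays. The remaining members included probe sets that were not, such as that of Eef1e1 (98.3%).

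**Figure D4:**
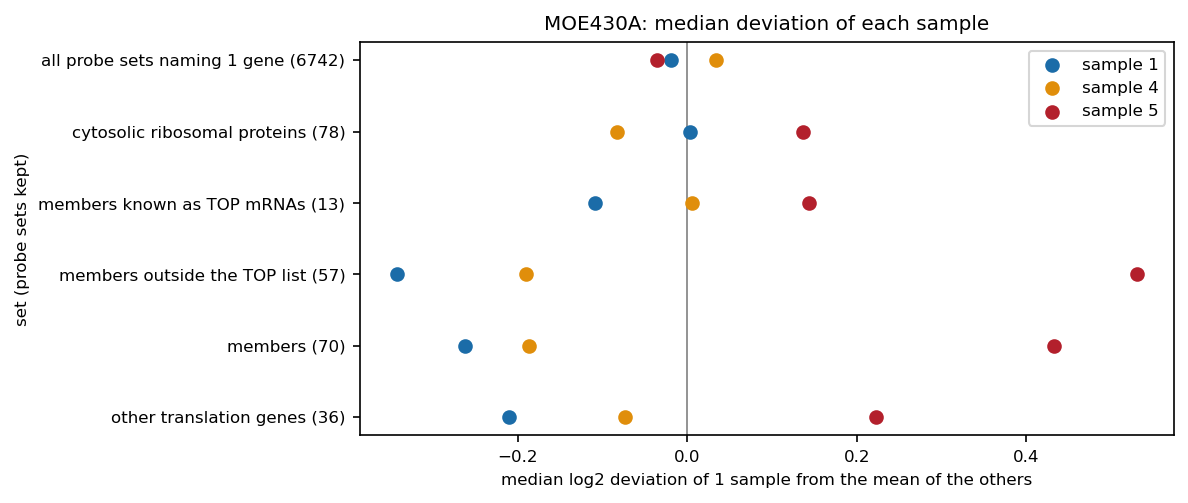
Median log2 deviation of samples 1, 4 and 5 on MOE430A (horizontal) for 6 sets of kept probe sets, with their numbers in parentheses. The medians of all probe sets lie at -0.04 to 0.03, those of ribosomal proteins and TOP members at -0.11 to 0.14, and those of the members outside the TOP list at -0.34, -0.19 and 0.53.

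The other genes of the translation apparatus were taken from a list that includes those left out by the rule. Of 48 such genes measured, 30 were detected, and over 36 kept probe sets on MOE430A the median deviations were -0.21, -0.07 and 0.22 in samples 1, 4 and 5. In sample 5, 5 of the 36 were at least 2-fold higher (7.43% of all kept probe sets), from Eif4ebp1, Pabpc4, Rheb and Abce1. The probe set of Abce1 was kept only through sample 5. From Pdcd4, 1 was as much lower (6.96% of all). Eif4ebp1, the repressor that holds eIF4E away from eIF4G, gave 4642, 5060 and 17828 by one kept probe set and 1916, 3735 and 8174 by the other. Both were highest in sample 5, by 3.68-fold and 3.06-fold. A dimmer Eif4ebp1 probe set, which was not kept, gave 782, 744 and 1025. The related Eif4ebp2 gave 4375, 4385 and 5597.

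Pdcd4, an inhibitor of eIF4A, gave 7004, 5450 and 2705 and was lowest in sample 5. Eef2k, the kinase that inactivates eEF2, gave 11417, 7206 and 4311 on MOE430B and was also lowest there. Rheb, the GTPase that activates mTOR, gave 8657, 8561 and 20245, and Abce1, which recycles ribosomes, gave 705, 1054 and 2549, both highest in sample 5. Abce1 was under the limit in samples 1 and 4. The release factor gene Gspt1 on MOE430B gave 5254, 2909 and 8682, highest in sample 5 and lowest in sample 4.

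The poly(A)-binding protein gene Pabpc1 gave 53552, 74818 and 92188, highest in sample 5, and Pabpc4 gave 2783, 8024 and 10197, with sample 1 lowest by 3.25-fold. Tpt1, itself a TOP mRNA, gave 121218, 186678 and 132355 and was highest in sample 4. Of the kinases of eIF2, which lower initiation under stress, Eif2ak1 gave 1426, 1925 and 1476, and Eif2ak3 gave 1639, 1557 and 1231. Eif2ak2 gave 1728, 781 and 853 and was above the limit in sample 1 only. Eif4enif1, which carries eIF4E into the nucleus, gave 2030, 2225 and 1616.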

How the data were processed

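The signal intensities were made by the authors with MAS5, per the submitters' processing notes, and deposited as 1 value per probe set and array. Its version and settings were not given in the sources used here. Both array designs were analysed apart. Gene names came from the platform annotation, which assigns 20393 MOE430A and 14674 MOE430B probe sets to exactly 1 gene, and 0 member symbols differed from RefSeq. The background list of 109 genes (103 measured) was represented by 134 MOE430A and 13 MOE430B probe sets. Signals below the limit were raised to it before log2. The members, the gene lists and the comparisons were chosen with earlier results of these data known. Every member could be named. Values in each sample are given for the leading genes of each role, paralogue pairs, members past 2-fold, and those brightest or of largest range. The members' promoters and starts came from RefSeq (GRCm38.p6). Member probe sets that can match several transcripts (names ending in _s_at or _x_at) numbered 21 on MOE430A and 2 on MOE430B. Scanner run settings were not used. Python 3.11.15, numpy 2.4.6, pandas 2.3.3 and matplotlib 3.10.9 were used, and the scripts were tested on simulated data. With 1 array per sample and design, the number of arrays limits the precision.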

Additional observations from a re-analysis of the deposited data

How the results depend on the processing

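The members' median deviation in sample 5 stayed positive under each alternative, at 0.38 to 0.47 on MOE430A and 0.23 to 0.41 on MOE430B. The median of sample 1 on MOE430A stayed negative but was -0.028 without sample 5 and -0.47 without sample 4, so its size depends on those samples. Sample 4 had no settled direction: leaving out each of the other samples gave medians of -0.38 to 0.028 on MOE430A (0.028 without sample 5) and -0.23 to 0.26 on MOE430B (-0.23 without sample 1). Detection fell from 37 to 22 genes when most of a gene's probe sets had to pass. On MOE430B, 14 probe sets were detected with 2 of 3 arrays in place of 7, and 7 to 14 when each sample was left out, the 14 being without sample 1.

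Counts past 2-fold, in either direction, depended on the filter and the threshold. On MOE430A, sample 5 had 14 of 70 members past 2-fold, and 9 of 63 among those detected on 3 of 3 arrays. It had 24 of 99 with no filter, 3 of 38 with 1 probe set per gene and 24 of 70 at 1.5-fold. Sample 1 had 6, against 1, 18, 2 and 23 under the same alternatives. When each other sample was left out it had 2 to 18 (2 of 66 without sample 5, 18 of 73 without sample 4). Sample 4 had 1, against 9 with no filter, 2 with signals as measured, 2 with a pseudocount of 64, 0 with 1 probe set per gene and 13 at 1.5-fold, and 2 to 13 when each other sample was left out (13 without sample 1). On MOE430B, sample 5 had 2 of 13, against 1 of 7 among those detected on 3 of 3 arrays and 10 of 32 with no filter. It had 1 to 2 when samples were left out. Sample 1 had 0, against 7 with no filter, 2 with signals as measured, 2 with the pseudocount and 5 at 1.5-fold, and 1 to 2 when samples were left out. Sample 4 had 1, against 5, 2, 2 and 5 under those alternatives, and 2 when each other sample was left out. Shares over all probe sets under these alternatives were computed only for higher signals in sample 5 on MOE430A. They were 6.76% with detection on 3 of 3 arrays and 6.72% with 1 probe set per gene. The other counts under alternatives have no background and cannot be set against one. The cause was not tested. Of 139 values under alternatives, 2 changed sign, and 35 moved by more than the spread between samples or, for counts, by more than 1.5 times.

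No paired analysis was possible because the single group leaves no result from a test. On MOE430B the limit rests on 13 probe sets and was highest in sample 1.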
